A study of Mus musculus with 26 samples.

Results

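The early classical complement components of the mouse were followed by 9 genes, C1qa, C1qb, C1qc, C1ra, C1rb, C1s1, C2, C4a and C4b, in pancreatic tumours and in splenic myeloid cells of KPC mice. The genes were found by symbol. All 9 of the 9 were in the tumour table of 16322 genes, and 7 of the 9 were in the sorted-cell table of 14131 genes, where C1s1 and C2 were not listed. All 9 and all 7 passed the filter on low values, which asked for a deposited log2 value of 0 or more in 5 tumours or in 3 of the sorted-cell libraries. The set was chosen by its differences between GS9820 and vehicle tumours, seen in an earlier analysis of these libraries. The tumour differences below are therefore descriptions: calls and intervals from the fit across all genes are printed with them, and nothing is read from those calls or intervals.

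KPC mice are a genetically engineered strain that develops pancreatic ductal adenocarcinoma. The groups were whole tumours of mice given GS9820 for 14 days (5 libraries) and of vehicle mice (7 libraries), splenic monocytes of GS9820 mice (4) and vehicle mice (3), and splenic PMN, or polymorphonuclear cells, of GS9820 mice (4) and vehicle mice (3). GS9820 inhibits p110δ, the catalytic subunit of phosphoinositide 3-kinase that is most abundant in leukocytes. The labels give the strain as KPC for every library, give no day for the vehicle animals, and do not give age, sex, the Cre driver or the kit used for each sorted-cell library. They also do not say which libraries came from separate animals, so the p-values measure the spread between these libraries. All values are deposited log2 values of expression, which the authors call log2 RPKM. Sequencing depth is unknown, since the libraries of a set share nearly 1 distribution, and no count stands behind a value.

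The classical pathway of complement starts when C1q, a bundle of A, B and C chains, binds antibody or other targets. C1q carries the proteases C1r and C1s; C1r activates C1s, and C1s cleaves C4 and C2 to form the enzyme that splits C3. Macrophages are a main source of C1q. C1r, C1s, C2, C3 and C4 are made by hepatocytes and by many other cells, fibroblasts among them. In whole tumours, fewer cells of a type and less RNA per cell cannot be told apart.

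The genes lie in 3 clusters of the mouse genome (GENCODE M21, GRCm38). On chromosome 4, on the minus strand, stand C1qb (ENSMUSG00000036905, chr4:136880129-136886187), C1qc (ENSMUSG00000036896, chr4:136889804-136893065) and C1qa (ENSMUSG00000036887, chr4:136895917-136898803). On chromosome 6 stand C1ra (ENSMUSG00000055172, chr6:124512405-124523443, plus strand), C1s1 (ENSMUSG00000038521, chr6:124530345-124542359, minus strand) and C1rb (ENSMUSG00000098470, chr6:124570294-124581171, plus strand). On chromosome 17, on the minus strand, stand C4b (ENSMUSG00000073418, chr17:34728380-34743882), C4a (ENSMUSG00000015451, chr17:34809092-34823464) and C2 (ENSMUSG00000024371, chr17:34862604-34898265). C1s1 overlaps Gm16567 on the opposite strand, and C2 overlaps Gm20547 on the same strand and Zbtb12 on the opposite one. Of the 100-base windows of the annotated transcripts, 34.5% of those of C1ra were also found letter for letter in C1rb, 42.7% of those of C1rb in C1ra, and 16.5% of those of C4a or C4b in the other gene. The split of reads between C1ra and C1rb and between C4a and C4b is therefore uncertain. C1s1 shared 7.9% of its windows with C1s2, and the C1q genes shared 0 with each other.

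The promoter windows, 250 bases before to 50 after the annotated start (RefSeq, GRCm38.p6), are shown for the genes of the C1r and C1s cluster and for C1qc and C1qb, because these neighbours on 2 chromosomes had different levels in the same tumours. Of the 9 genes, 5 had a window. Capitals mark matches, on either strand, to 4 motifs that were searched: the core of the interferon-stimulated response element, the STAT site TTCNNNGAA, the Ets and PU.1 motif GAGGAAG, and the C/EBP motif TTGCNNAA.
C1ra (chr6:124512371-124512670, plus strand): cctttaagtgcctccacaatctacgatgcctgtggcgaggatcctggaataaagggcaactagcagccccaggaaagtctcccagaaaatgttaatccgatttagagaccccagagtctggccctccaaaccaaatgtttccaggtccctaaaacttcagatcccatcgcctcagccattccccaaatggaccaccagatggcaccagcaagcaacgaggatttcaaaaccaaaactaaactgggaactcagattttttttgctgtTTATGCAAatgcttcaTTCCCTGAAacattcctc
C1rb (chr6:124570180-124570479, plus strand): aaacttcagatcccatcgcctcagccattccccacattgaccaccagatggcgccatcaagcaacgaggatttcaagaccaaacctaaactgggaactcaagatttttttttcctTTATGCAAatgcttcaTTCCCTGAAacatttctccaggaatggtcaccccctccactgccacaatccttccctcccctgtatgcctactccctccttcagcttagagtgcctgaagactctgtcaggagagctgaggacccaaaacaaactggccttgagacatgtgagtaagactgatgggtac
C1s1 (chr6:124542310-124542609, minus strand, first of 2 starts): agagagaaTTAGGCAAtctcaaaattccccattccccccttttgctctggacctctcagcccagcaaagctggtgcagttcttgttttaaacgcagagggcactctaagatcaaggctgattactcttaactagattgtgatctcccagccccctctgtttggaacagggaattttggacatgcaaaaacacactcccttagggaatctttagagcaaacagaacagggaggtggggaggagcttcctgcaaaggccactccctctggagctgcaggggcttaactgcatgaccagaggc
C1qc (chr4:136892865-136893164, minus strand): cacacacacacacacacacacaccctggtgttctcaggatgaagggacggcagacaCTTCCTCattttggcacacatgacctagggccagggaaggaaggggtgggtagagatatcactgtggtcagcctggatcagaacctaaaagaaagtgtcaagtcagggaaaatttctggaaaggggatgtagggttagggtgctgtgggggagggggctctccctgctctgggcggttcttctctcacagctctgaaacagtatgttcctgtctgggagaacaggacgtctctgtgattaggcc
C1qb (chr4:136886151-136886450, minus strand): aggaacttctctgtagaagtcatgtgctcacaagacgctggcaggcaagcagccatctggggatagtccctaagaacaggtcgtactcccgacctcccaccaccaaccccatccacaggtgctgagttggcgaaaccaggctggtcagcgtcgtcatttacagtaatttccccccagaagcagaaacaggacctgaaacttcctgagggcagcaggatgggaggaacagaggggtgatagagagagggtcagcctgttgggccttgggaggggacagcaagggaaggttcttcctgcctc
C1ra and C1rb each held 1 C/EBP match followed by 1 STAT-site match. They stood at +17 and +33 from the RefSeq start of C1ra and at -135 and -119 from that of C1rb. Both RefSeq starts lie inside the GENCODE genes given above, so the placement of the matches depends on the annotation. C1s1 held a C/EBP match at -242 and C1qc an Ets match at -194, while C1qb held no match. Among 32851 promoter windows of the same length, 10.8% held the C/EBP motif, 8.3% the STAT site, 13.63% the Ets motif and 3.44% the interferon element. The longest run that the C1ra and C1rb windows shared was 34 bases long, against 9 bases for C1ra and C1s1 and 10 bases for C1qb and C1qc. These matches describe the letters only, and binding was not measured.

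In GS9820 tumours the proteases C1ra, C1rb and C1s1, the component C2 and both C4 genes had higher mean values than in vehicle tumours, by 1.73 to 2.37 on the log2 scale, while C1qa, C1qb and C1qc differed by 0.21 or less. Of the 9 genes, 8 had a change above 0, with a median of 1.85, beside 45.3% of all 16296 genes tested and a median of -0.06. In the limma fit across all genes, 3 of the 9 genes (C1ra, C1rb and C4a) were called higher at adjusted p 0.05, and 0 were called lower. Over all genes, 0.878% were called higher. The 2 groups overlapped for all 9 genes, and over all genes 2.81% had groups that did not overlap. Since the genes were chosen on this contrast, nothing is read from these counts. The count of 3 was 0 without vehicle tumour 2 or 4 or without GS9820 tumour 2, 4 or 5, was 1 without vehicle tumour 1 or 3, and ran from 2 to 4 without any other library.

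**Figure D1:**
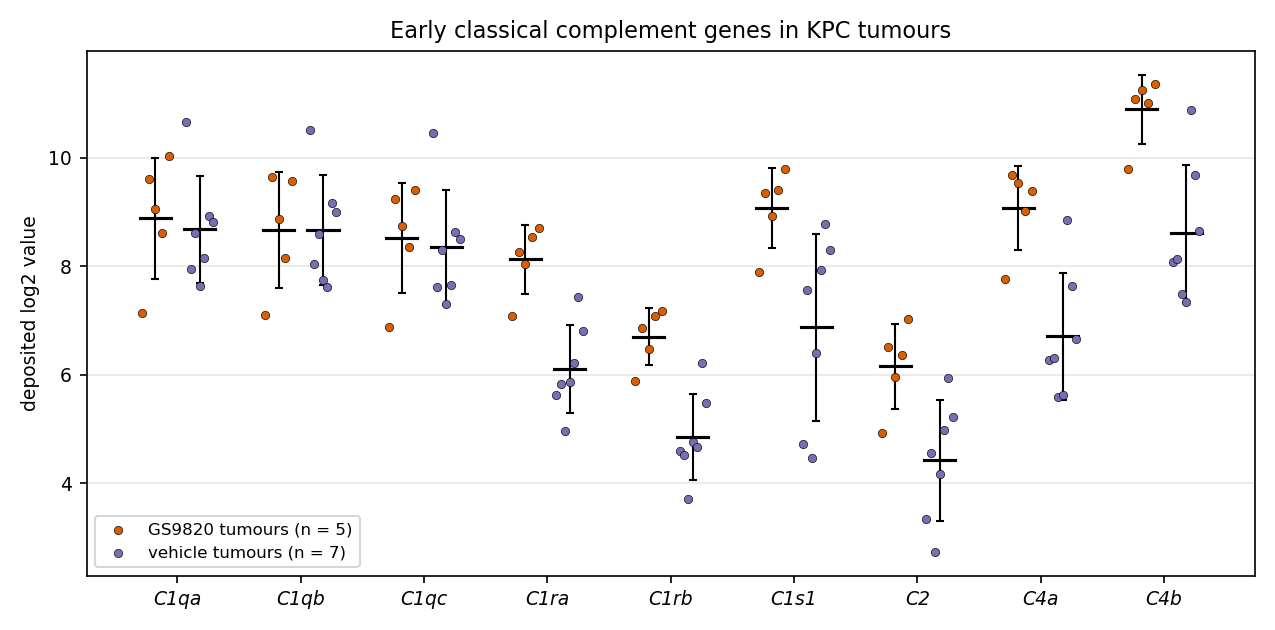
Deposited log2 values of the 9 genes in each tumour, with GS9820 tumours left of vehicle tumours for every gene; points are libraries, thick lines are group means and bars are ± SD. In C1ra, C1rb, C1s1, C2, C4a and C4b, 4 of 5 GS9820 tumours sit above every vehicle tumour, while the C1q genes overlap over most of their range.

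The C1q chains were among the most abundant transcripts of these tumours in both arms. C1qa, the A chain, had deposited log2 values of 7.13, 9.60, 9.04, 8.61 and 10.02 in GS9820 tumours 1 to 5, against a lowest of 7.63, a median of 8.61 and a highest of 10.65 in vehicle tumours. GS9820 tumour 1 was the lowest of all 12, and the highest was vehicle tumour 1. C1qb, the B chain, had 7.09, 9.64, 8.87, 8.16 and 9.56 in GS9820 tumours, against a lowest of 7.62, a median of 8.60 and a highest of 10.51 in vehicle tumours. C1qc, the C chain, had 6.88, 9.23, 8.75, 8.35 and 9.41 in GS9820 tumours, against 7.29, 8.30 and 10.46 in vehicle tumours. The same 2 tumours were the lowest and the highest for all 3 chains. The log2 change was 0.21 ± 0.55 for C1qa, -0.0038 ± 0.54 for C1qb and 0.18 ± 0.55 for C1qc (SE, n = 5 and 7). The 95% interval of C1qb, -1.18 to 1.17, holds changes of over 2-fold in either direction. Without vehicle tumours 1 and 4 and GS9820 tumours 1 and 3, which stood apart in epithelial or hepatocyte markers, the changes were 0.92 for C1qa, 0.63 for C1qb and 0.86 for C1qc.

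The C1r and C1s proteases separated the arms more widely. C1ra, a mouse gene for C1r, had deposited log2 values of 7.08, 8.26, 8.04, 8.54 and 8.70 in GS9820 tumours, against a lowest of 4.95, a median of 5.86 and a highest of 7.43 in vehicle tumours. Only GS9820 tumour 1 lay inside the vehicle range, and of the vehicle tumours only tumour 6 was above it. The mean was 8.13 ± 0.64 in GS9820 and 6.10 ± 0.81 in vehicle tumours (SD), a log2 change of 2.03 ± 0.40 (SE) or 4.07-fold, with a 95% interval of 1.17 to 2.88 on the log2 scale. C1rb, the neighbouring copy of C1r, had 5.88, 6.87, 6.48, 7.09 and 7.17 in GS9820 tumours, against 3.71, 4.66 and 6.21 as the lowest, median and highest vehicle values. Its change was 1.85 ± 0.37, with the same pair of tumours overlapping. C1s1, the mouse C1s gene, had 7.88, 9.35, 8.92, 9.41 and 9.80 in GS9820 tumours, against 4.47, 7.57 and 8.77 in vehicle tumours. Its SD was 0.73 in GS9820 tumours and 1.72 in vehicle tumours, the widest vehicle spread of the 9 genes, and its change was 2.19 ± 0.74.

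C2 and C4b, substrates of C1s, and the C4 copy C4a were also higher in 4 of 5 GS9820 tumours than in any vehicle tumour. C2 had deposited log2 values of 4.92, 6.51, 5.95, 6.36 and 7.02 in GS9820 tumours, against a lowest of 2.73, a median of 4.55 and a highest of 5.94 in vehicle tumours. GS9820 tumour 1 lay below 3 of the 7 vehicle tumours, and the change was 1.73 ± 0.52. C4a, the copy of C4 known as sex-limited protein, is annotated as a processed transcript and not as protein coding. It had 7.75, 9.67, 9.53, 9.01 and 9.39 in GS9820 tumours, against 5.59, 6.31 and 8.84 in vehicle tumours. C4b, the gene for the main mouse C4, had 9.78, 11.08, 11.25, 11.01 and 11.35 in GS9820 tumours, against 7.33, 8.13 and 10.87 in vehicle tumours. In both C4 genes the highest vehicle value belonged to vehicle tumour 5, at 8.84 for C4a and 10.87 for C4b, and the next was vehicle tumour 6 at 7.63 and 9.67. Vehicle tumour 5 also had the highest mean of the neutrophil markers, 7.06, against 2.12 to 4.62 in GS9820 tumours; 11 of the 13 markers were measured, and their part was not tested. The change was 2.37 ± 0.54 for C4a and 2.29 ± 0.56 for C4b (SE), or 5.16-fold and 4.90-fold, and without vehicle tumour 5 it was 2.72 and 2.67.

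The order of the deposited levels, which the authors name per kilobase, differed between the arms. In GS9820 tumours C4b had the highest mean at 10.89 ± 0.64, followed by C4a at 9.07 ± 0.78, C1s1 at 9.07 ± 0.73, C1qa at 8.88 ± 1.12, C1qb at 8.66 ± 1.06, C1qc at 8.52 ± 1.01 and C1ra at 8.13 ± 0.64 (SD, n = 5). Adjacent genes in this order, from C4a to C1ra, did not differ beyond their spread. C1rb at 6.70 ± 0.53 and C2 at 6.15 ± 0.79 were the lowest. In vehicle tumours C1qa at 8.68 ± 0.99, C1qb at 8.67 ± 1.01, C4b at 8.60 ± 1.27 and C1qc at 8.35 ± 1.06 led and overlapped, followed by C1s1 at 6.88 ± 1.72, C4a at 6.70 ± 1.17 and C1ra at 6.10 ± 0.81, with C1rb at 4.85 ± 0.79 and C2 at 4.42 ± 1.11 last (SD, n = 7). Over the 12 tumours C4b ranked at percentile 98.8 of all genes, C1qa at 97.7, C1ra at 88.8 and C2 at 57.5.

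Within each tumour, the level of C1ra was set against that of C1qb. The difference of log2 values, C1ra minus C1qb, had a median of -0.83 in GS9820 tumours (range -1.38 to 0.39) and of -2.20 in vehicle tumours (range -4.88 to -1.42), and the ranges did not overlap. C4b minus C1qb had a median of 2.38 (range 1.44 to 2.85) in GS9820 tumours and of -0.35 (range -2.42 to 3.25) in vehicle tumours. C1s1 minus C1qb had medians of 0.23 and -0.71, and C2 minus C1qb of -2.54 and -3.57, in GS9820 and vehicle tumours, with overlapping ranges for both genes. These differences rest on the contrast that chose the genes, and no test was made of them.

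Across the 12 tumours the genes formed 2 blocks. Pearson's r of the log2 values was 0.965 to 0.993 for the 3 pairs within C1q and 0.817 to 0.993 (median 0.867) for the 15 pairs among the other 6 genes. For the 18 pairs of a C1q gene with one of the others it was -0.047 to 0.272, with a median of 0.182. The tumours share their arms and their cell content in these values, and C1ra with C1rb and C4a with C4b may share reads.

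Correlations with single genes over the 12 tumours were computed for 10 pairs chosen after the values had been seen. They are descriptions with no p, since the genes were chosen on the difference between the arms, and that difference enters any correlation over both arms. C1qb ran with Csf1r, the receptor of the macrophage growth factor, with Pearson's r of 0.906 and Spearman's rho of 0.881. Without the 2 tumours farthest from the median of C1qb, vehicle tumour 1 and GS9820 tumour 1, r was 0.823, and after the arm means were taken out it was 0.938. Mertk, a macrophage receptor for dying cells, gave r = 0.277 and rho = 0.322 with C1qb. C1qb and C1ra gave r = 0.176 and rho = 0.224, with r at 0.316 within the arms and at 0.591 without those 2 tumours.

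C1ra ran with Dcn, the collagen-binding proteoglycan decorin made by fibroblasts, with r = 0.991 and rho = 1.0. No other fibroblast marker was set against C1ra. Dcn was among the 2 of 12 fibroblast markers called higher in GS9820 tumours, where the list had a median change of 0.30. Within the arms r was 0.971, and without vehicle tumour 3 and GS9820 tumour 5, the tumours farthest from the median of C1ra, it was 0.986. With C1s1, C1ra gave r = 0.906 and rho = 0.972, and with C2 r = 0.957 and rho = 0.965, and within the arms r was 0.87 and 0.953. With C4b, r was 0.865 over all tumours and 0.649 within the arms. C3, the component that the classical convertase splits, gave r = 0.866 over all tumours and 0.746 within the arms, and Serping1, the C1 inhibitor, gave 0.862 and 0.808.

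**Figure D2:**
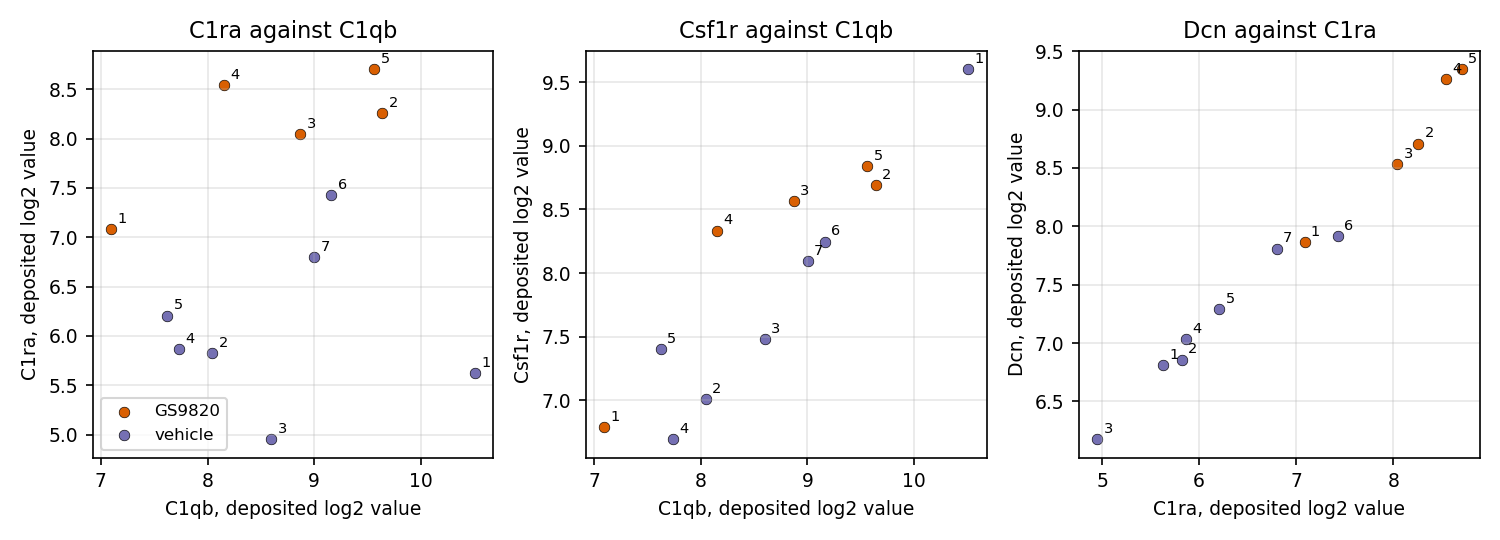
Deposited log2 values of C1ra against C1qb, Csf1r against C1qb and Dcn against C1ra in the 12 tumours, 1 point per library with its number, coloured by arm. Csf1r lies along a line with C1qb (r = 0.906) and Dcn with C1ra (r = 0.991), while C1ra and C1qb are scattered (r = 0.176).

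Searched over all genes of the tumour fit, the genes most like the C1q mean by Pearson's r over 12 tumours included Cmklr1 (0.978), Lrrc25 (0.977), C3ar1 (0.969) and Fcgr1 (0.952). C3ar1 is the receptor of the C3a fragment, and Fcgr1 is an activating receptor of antibody. The genes most like the mean of C1ra and C1s1 were C1s2 (0.980), Prelp (0.973), Zfp423 (0.970), Mmrn2 (0.965) and Ehd3 (0.960). C2 was most like C1s2 (0.975), Zfp423 and Mfap4 (0.966 each), Mmrn2 (0.961) and Prelp (0.960), so that 4 of its 5 were also among those of C1ra and C1s1. C4b was most like Stat3 (0.984), Grk3 (0.956), mt-Nd3 (0.947), Derl2 (0.940) and Zfp715 (0.938). Stat3, the transcription factor of the acute-phase response, had 7.39, 7.81, 7.70, 7.69 and 7.85 in GS9820 tumours, against 6.85 to 7.60 in vehicle tumours, where the highest was again vehicle tumour 5. These are likenesses found by a search, with no test.

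Of the 47 other complement genes that were looked up, 35 were kept in tumours. C6 and C7, which form the membrane attack complex with C5, C8 and C9, were the 2 called higher in GS9820 tumours by limma, and 0 were called lower. Over all genes 0.878% were called higher and 1.33% lower. Of the 7 terminal genes looked up, only these 2 were present in the tumour data. C6 averaged 3.73 in GS9820 and 1.59 in vehicle tumours, a log2 change of 2.14 ± 0.47 (SE, limma adjusted p = 0.0395), and C7 averaged 3.43 and 0.85 in GS9820 and vehicle tumours, a change of 2.58 ± 0.60 (limma adjusted p = 0.0463). For both, every GS9820 tumour was above every vehicle tumour, as was the case for 0.951% of all genes. Without GS9820 tumour 4, 0 of all genes were called, C6 and C7 among them. Over the 35 genes, 29 had a change above 0 and the median was 0.81, beside the -0.06 of all genes.

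The remaining groups held no call. C3, the next component, averaged 11.36 in GS9820 and 8.98 in vehicle tumours (2.39 ± 0.74, limma adjusted p = 0.0888), and Cfb, the alternative-pathway relative of C2, had a change of 1.88 ± 0.67 (limma adjusted p = 0.12). All 3 of the C1 relatives and inhibitor had changes above 0, with 1.75 ± 0.63 for C1s2 and 2.16 ± 0.80 for Serping1, which averaged 9.49 in GS9820 and 7.33 in vehicle tumours. Of the lectin pathway, whose protease Masp2 also cleaves C4 and C2, 3 of 8 genes were kept, with 1.01 ± 0.49 for Masp2 and 0.92 ± 0.47 for Masp1, another protease of that pathway. Among 13 regulators 11 had changes above 0 and the median was 0.81, with 2.81 ± 1.07 for Vtn and 1.90 ± 0.75 for Cd55. The 11 receptors kept had a median of 0.10. The 2 of smallest p were Calr, a C1q-binding chaperone, at -0.52 ± 0.17 and C1qbp, a mitochondrial C1q-binding protein, at -0.61 ± 0.26 (limma adjusted p = 0.098 and 0.174).

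Markers of cell types moved unevenly beside these genes. Of the 15 macrophage markers all were measured, 1 was called higher (Maf, 1.45 ± 0.31) and the median change was 0.35. The log2 of their summed level ran from 10.76 to 12.62 in GS9820 and from 11.33 to 13.39 in vehicle tumours. Apoe alone was at 10.12 in the GS9820 tumour with the sum of 10.76 and at 13.03 in the vehicle tumour with 13.39. The mean of the 15 markers had a median of 6.34 in GS9820 (5.01 to 6.42) and of 5.14 in vehicle tumours (4.80 to 6.89). Of the 12 fibroblast markers all were measured and 2 were called higher, Dcn at 1.61 ± 0.33 and Dpt at 1.99 ± 0.44 (limma adjusted p = 0.0339 and 0.04), with a median of 0.30. Their summed level ran from 12.11 to 13.82 in GS9820 and from 11.60 to 14.05 in vehicle tumours, and Col1a1 overlapped at 9.97 to 12.11 and 9.39 to 12.15. The mean of the 12 fibroblast markers had a median of 8.13 in GS9820 (6.89 to 8.67) and of 7.23 in vehicle tumours (6.21 to 8.04). Of 8 endothelial markers 2 were called higher, with a median of 0.87, and their summed level ran from 8.37 to 9.19 in GS9820 and from 7.60 to 8.72 in vehicle tumours. Of 25 interferon-stimulated genes 3 were called higher and 24 had changes above 0, with a median of 1.08.

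Lists of islet, acinar, fat and lymphoid markers also had positive median changes. Of 8 islet markers 3 were called higher and all 8 had changes above 0, with a median of 4.71, and the log2 of their summed level ran from 9.39 to 12.59 in GS9820 and from 3.08 to 10.80 in vehicle tumours. Of 10 acinar markers 1 was called higher and all 10 were above 0, with a median of 2.20 and summed levels of 12.10 to 15.44 in GS9820 and 8.23 to 16.10 in vehicle tumours. Of 8 adipocyte markers, which include the complement gene Cfd, 6 were kept and 0 called, with a median of 3.41 and summed levels of 6.37 to 9.33 in GS9820 and 4.03 to 7.71 in vehicle tumours. The median change was 1.53 for 7 T cell markers, 1.36 for 8 B and plasma cell markers, 0.83 for 6 dendritic cell markers, 0.45 for 11 monocyte markers, 0.32 for 10 carcinoma epithelium markers and -1.17 for 11 neutrophil markers, with 0 called in each list. The part of these cell types in the complement values was not tested.

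Liver transcripts were high in some tumours, and hepatocytes make C1r, C1s, C2 and C4. Of 9 hepatocyte markers 6 were measured, with a mean of 5.49, 2.14, 11.61, 2.85 and 2.47 in GS9820 tumours 1 to 5, against a lowest of 0.41, a median of 1.26 and a highest of 5.56 in vehicle tumours. Alb was 13.29 in GS9820 tumour 3 and 4.67 or lower in the other GS9820 tumours, against at most 6.15 in vehicle tumours. In GS9820 tumour 3, C1ra (8.04), C1rb (6.48), C1s1 (8.92) and C2 (5.95) were each below 3 of the other 4 GS9820 tumours, whereas C4a (9.53) and C4b (11.25) were each above 3 of them and C3 (12.15) was the highest. The part of liver RNA in these values was not tested. Without that tumour the C1ra change was 2.05 and the C4b change 2.20. Carcinoma keratins checked the tissue label: Krt19 had 8.13 to 11.13 in GS9820 tumours and 4.90 to 11.30 in vehicle tumours, the 4.90 being vehicle tumour 1, which also had the highest C1q. Without vehicle tumours 1 and 4 and GS9820 tumours 1 and 3 together, the changes of C1ra, C1rb, C4a and C4b were 2.26, 2.13, 2.35 and 2.19, and 0 of the 9 genes were called.

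**Figure D3:**
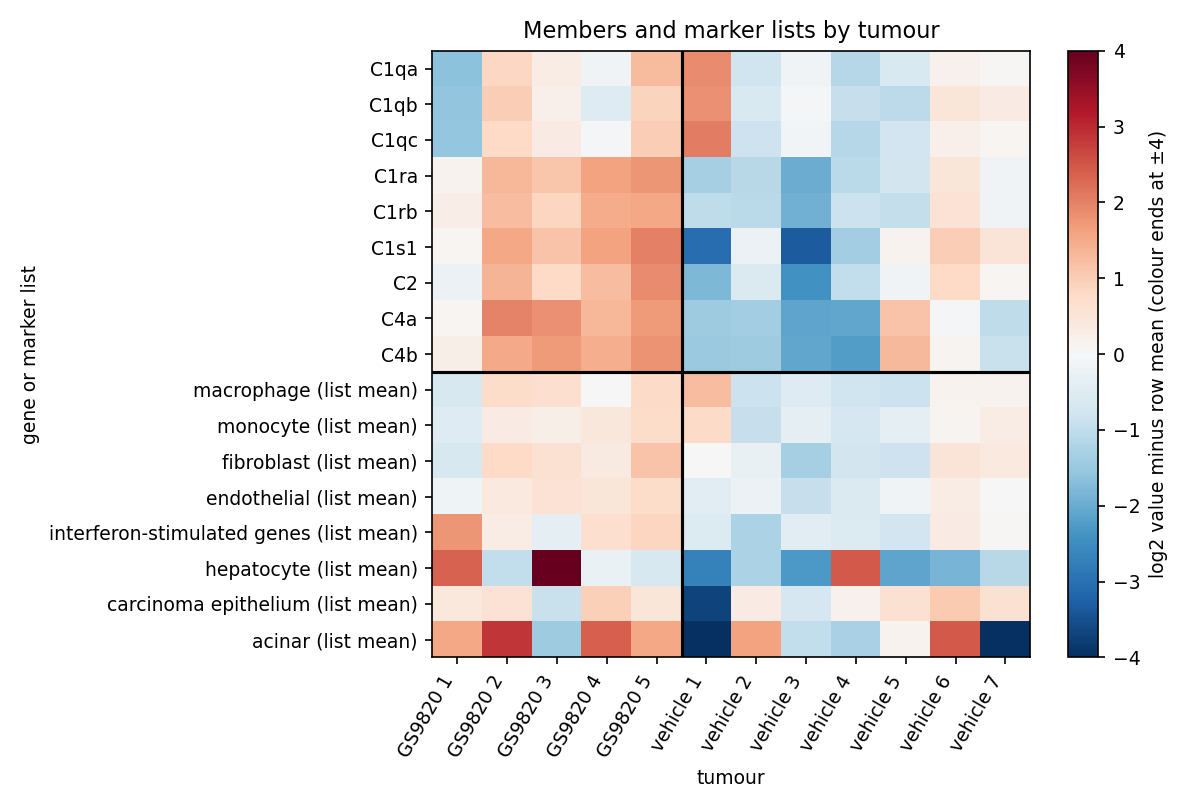
Deposited log2 values of the 9 genes, and means of 8 marker lists, in the 12 tumours, each row minus its mean over the tumours, with colours ending at 4 above or below it and GS9820 tumours on the left. The 3 C1q rows share a pattern, lowest in GS9820 tumour 1 and highest in vehicle tumour 1, and the other 6 rows share another, high in GS9820 tumours 2 to 5, while the hepatocyte row peaks in GS9820 tumour 3 and the epithelial row is lowest in vehicle tumour 1.

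In the splenic cells all 7 genes listed stood low in the mean over the 14 libraries, at percentiles 9.5 to 33.5 of that table. In the single library vehicle PMN 1 the C1q chains were higher, at 7.15 to 7.59. The sorts held their marker transcripts: the mean of the 13 neutrophil markers was 11.95 to 12.45 in PMN of GS9820 mice and 12.19 to 12.22 in PMN of vehicle mice, and that of the 12 monocyte markers was 8.51 to 9.03 in monocytes of GS9820 mice and 7.72 to 9.35 in monocytes of vehicle mice. Neutrophil markers were also at 8.93 to 10.22 and 8.43 to 10.70 in those monocytes, and whether the monocytes or other cells carried these transcripts was not tested. GS9820 was set against vehicle within each sort, in 1 limma fit of the 14 libraries.

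In PMN, 0 of the 7 genes were called between GS9820 and vehicle, and 0% of all 13968 genes were called, with 430 of them and 0 of the 7 at an unadjusted p under 0.05. C1qb had 2.997, 3.64, 4.01 and 3.07 in PMN of GS9820 mice, against 7.59, 5.15 and 1.93 in PMN of vehicle mice 1 to 3. The vehicle libraries lay on both sides of the treated ones. C1qa had 3.21, 3.33, 3.99 and 3.27 in GS9820 and 7.15, 4.27 and 1.61 in vehicle PMN, and C1qc had 3.35, 3.14, 4.00 and 2.83 in GS9820 and 7.33, 4.19 and 1.68 in vehicle PMN. The changes were -1.46 ± 0.93 for C1qb, -0.89 ± 0.92 for C1qa and -1.07 ± 0.94 for C1qc (SE, limma adjusted p = 1.0 for each). Without vehicle PMN 1 and 2 the signs turned, to 1.495, 1.84 and 1.65, with a single vehicle library left that is assumed to vary like the others.

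Among vehicle PMN the C1q chains were highest in library 1, next in library 2 and lowest in library 3, and some macrophage markers had the same order. Of the 15 macrophage markers 13 were listed (not Folr2 and Timd4), and 6 of the 13 had the order of C1q, as had 4 of the 7 red pulp macrophage markers. The share of all genes with this order was not computed, so nothing is read from these counts. Among those with the order, Spic, the transcription factor of red pulp macrophages, had 1.80 to 4.01 in GS9820 PMN and 5.72, 3.48 and 2.52 in vehicle PMN 1 to 3. Mertk had -0.58 to 1.30 in GS9820 and 3.18, 1.77 and -0.92 in vehicle PMN, and Axl, another receptor for dying cells, had 2.92 to 3.63 in GS9820 and 5.26, 4.90 and 2.64 in vehicle PMN. Csf1r also had the order but differed less, at 8.04 to 9.07 in GS9820 PMN and at 8.96, 8.85 and 8.63 in vehicle PMN. Among those without it, the iron exporter Slc40a1 had 9.55 to 10.52 in GS9820 and 9.91, 9.60 and 10.18 in vehicle PMN, highest where C1q was lowest. Apoe, Hmox1 and Adgre1 had 7.95, 7.01 and 7.54, then 7.62, 7.09 and 7.48, then 6.37, 6.47 and 6.36 in vehicle PMN 1 to 3. The log2 of the summed level of the 13 macrophage markers ran from 9.35 to 10.09 in GS9820 and from 9.98 to 10.32 in vehicle PMN. The 7 red pulp macrophage markers had a mean of 5.10 to 5.90 in GS9820 PMN and of 6.56, 5.91 and 5.37 in vehicle PMN 1, 2 and 3. The part of these cells in the C1q values was not tested. The genes most like the C1q mean over the 14 sorted libraries were Adamdec1 (r = 0.937), Asb2 (0.908), Tcf7l2 (0.898), Itga9 (0.889) and Arhgef12 (0.867), each highest in vehicle PMN 1.

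The other genes were at low values in PMN. C1ra had 2.92, 3.15, 3.25 and 2.19 in GS9820 and 2.63, 2.36 and 3.07 in vehicle PMN, and C4b had 2.75, 3.31, 4.19 and 1.24 in GS9820 and 3.22, 3.47 and 3.18 in vehicle PMN. C1rb and C4a ran from 0.00 to 1.06 and from 0.23 to 1.81 in GS9820 PMN, and from 0.26 to 1.07 and from 0.71 to 2.41 in vehicle PMN. All 4 genes overlapped between the arms, with changes of -0.42 to 0.19.

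In monocytes, 0 of the 7 genes were called between GS9820 and vehicle, again with 0% of all genes called, and 335 genes and 0 of the 7 were at an unadjusted p under 0.05. C4b had the largest change of the 7, with 4.16, 4.35, 5.12 and 3.62 in GS9820 monocytes and 3.28, 2.72 and 3.73 in vehicle monocytes, a change of 1.07 ± 0.55 (SE, limma adjusted p = 0.995). In 3 of 4 GS9820 libraries it was above every vehicle library. C4a had 1.19, 0.96, 1.67 and 0.74 in GS9820 monocytes, against 0.66, 0.37 and 0.996 in vehicle monocytes. C1ra, C1rb and the C1q chains differed by -0.05 to 0.22 and overlapped. C1qb had 2.32, 1.48, 2.82 and 2.32 in GS9820 and 2.63, 2.05 and 1.35 in vehicle monocytes. The treatment effect in monocytes minus that in PMN was 1.49 ± 0.77 for C4b and 1.69 ± 1.32 for C1qb, with limma adjusted p of 1.0 for all 7 genes, and 0% of all genes were called for that difference (269 at an unadjusted p under 0.05, 0 of the 7).

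**Figure D4:**
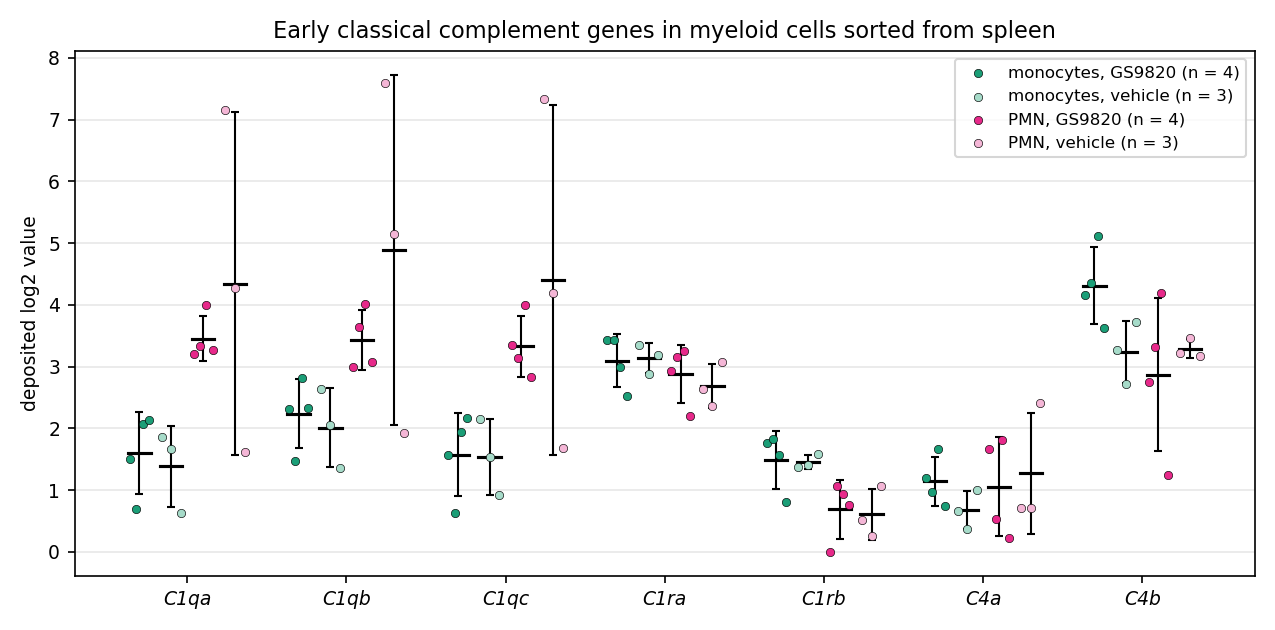
Deposited log2 values of the 7 genes listed in sorted cells, 1 point per library, with monocytes left of PMN and GS9820 left of vehicle; bars are means ± SD. The C1q chains are spread from 1.61 to 7.59 in vehicle PMN and lie between 0.63 and 2.82 in all monocyte libraries.

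Monocytes and PMN of the same treatment were then compared. In vehicle mice 3 of the 7 genes were called lower in monocytes, the C1q chains, and 27.2% of all genes were called lower. The changes were -2.96 ± 0.98 for C1qa, -2.88 ± 0.99 for C1qb and -2.87 ± 1.0 for C1qc (SE, limma adjusted p = 0.0196, 0.0241 and 0.0258). In the fit each gene had 1 spread for all 4 groups. The SD of the C1q chains was 2.77 to 2.84 in vehicle PMN and 0.36 to 0.68 in the other groups. Their SE and p, here and in the other sorted-cell comparisons, thus do not follow the spread of the groups compared. The groups overlapped for all 3 chains, since vehicle PMN 3 lay within the monocyte range. Without vehicle PMN 1, or without vehicle monocyte library 3, none of the 7 was called, and without vehicle PMN 1 the changes were -1.56 for C1qa, -1.53 for C1qb and -1.40 for C1qc. C1rb was the 1 gene of 7 whose groups did not overlap, higher in monocytes by 0.84 ± 0.35 (limma adjusted p = 0.0525), whereas 59.5% of all genes had groups without overlap.

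In GS9820 mice C1rb and C4b were called higher in monocytes, 2 of 7 beside 37.6% of all genes, and 0 of 7 were called lower, beside 32.1%. C1rb had 1.77, 1.83, 1.56 and 0.81 in monocytes and 0.00, 1.06, 0.94 and 0.77 in PMN, a difference of 0.80 ± 0.30 (SE, limma adjusted p = 0.0305). C4b had 4.16, 4.35, 5.12 and 3.62 in monocytes and 2.75, 3.31, 4.19 and 1.24 in PMN, a difference of 1.44 ± 0.51 (limma adjusted p = 0.0225). For both genes the groups overlapped. The C1rb call was lost without PMN 1 or without monocyte library 1, 2 or 3, and the C4b call without PMN 4 or monocyte library 3. The C1q chains were lower in every monocyte library than in every PMN library of GS9820 mice, 3 of 7 genes without overlap beside 69.5% of all genes, with changes of -1.85 ± 0.85 for C1qa, -1.19 ± 0.86 for C1qb and -1.75 ± 0.87 for C1qc (limma adjusted p = 0.0681, 0.231 and 0.0886). The same-numbered libraries as a block brought C1qa and C1qc past the threshold (limma adjusted p = 0.0264 and 0.038). Whether equal numbers share an animal is not in the labels, and in GS9820 mice only numbers 3 and 4 were most alike to their own.

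Other complement genes also differed between monocytes and PMN. Of 25 kept in sorted cells, 9 were called higher and 13 lower in monocytes of vehicle mice by limma, beside 32.8% of all genes called higher and 27.2% lower. Fcnb, a ficolin of the lectin pathway, was higher by 3.11 ± 0.50 and C3 by 1.30 ± 0.21. The C5a receptors C5ar1 and C5ar2 fell by 3.13 ± 0.57 and 3.84 ± 0.47 in monocytes relative to PMN. Between GS9820 and vehicle, 0 of the 25 were called in either sort, with median changes of 0.02 in PMN and -0.06 in monocytes.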

How the data were processed

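RNA of 12 tumours and 14 sorted-cell samples of KPC mice was sequenced (per the labels, 100 base paired ends; tumours with a stranded total RNA kit, sorted cells with either of 2 kits). The deposited values are log2 values, named log2 RPKM by the authors. Per the submitters' processing notes TopHat2, STAR, limma and mm10 were used, with no versions or roles. The libraries of a set share nearly 1 distribution (sums after reversal of the log2 of 1552394 to 1552449 in tumours and 1429080 to 1430327 in sorted cells), which hides depth and any change in total RNA, so no counting error could be computed. No pair of libraries was identical (0 pairs).

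Values were used as deposited, with GENCODE M21 symbols (16039 of 16322 and 13886 of 14131 identifiers matched). Genes reaching 0 in 5 tumours, or in 3 sorted libraries, were kept (16296 and 13968) and fitted with limma 3.58.1 (lmFit, eBayes with trend, two-sided) in R 4.3.3, with Benjamini-Hochberg adjustment across all genes kept and a threshold of 0.05. Tumours formed 1 fit and sorted cells another with 4 groups, giving 6 comparisons. Intervals are 95%. Correlations were computed with scipy 1.17.1 and figures drawn with matplotlib 3.10.9 in Python 3.11.15. The fit was tested on simulated data with the same group sizes. In tumours it recovered 26% of 2-fold and 78% of 4-fold changes, and in PMN 52% and 90%, with 9 false calls in each. Smaller changes could thus be missed. The simulated noise was independent between genes and had the same spread in every group. The libraries differ from that, so these rates may not hold for them. Replicate numbers did not pair the tumours (correlations of -0.177 to 0.265). Between monocytes and PMN of vehicle mice, each number was most alike to its own (0.462, 0.294 and 0.105). In GS9820 mice this held for numbers 3 and 4 (0.268 and 0.447) but not for 1 and 2 (-0.132 and -0.215). The labels do not say whether equal numbers share an animal, so pairing is uncertain in both arms.

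The 9 genes, the complement and marker lists and the alternatives were chosen with earlier results of these data known. Of other complement genes, up to 6 members of a list past the threshold, or else the 2 of smallest p, are named by rule, and likeness was ranked by Pearson's r, 5 genes each; results of some genes are not reported here. C3 in sorted cells, the relations and the single macrophage genes in PMN were chosen after their values were seen. Alternatives were another filter, pseudocount, normalization, centring, eBayes without the trend, array weights, each library left out and a replicate block.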

Additional observations from a re-analysis of the deposited data

Results flagged for a closer look

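In 4 of the 32 groups of 4 to 10 libraries that were checked, 1 library lay far from the rest by Dixon's criterion. Chance alone meets that criterion in about 1 of 20 independent groups, but these groups are not independent, since the genes share libraries. C1qa and C1qc, with r = 0.993 over the tumours, marked the same tumour. Vehicle tumour 1 had the highest C1qa at 10.65, with the other vehicle tumours at 7.63 to 8.92, and the highest C1qc at 10.46, with the others at 7.29 to 8.63. GS9820 tumour 1 had the lowest C4b of its arm at 9.78, with the others at 11.01 to 11.35. GS9820 PMN 3 had a C1qa of 3.99, with the others at 3.21 to 3.33.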

How the results depend on the processing

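Of 968 changes and counts under alternative settings, 828 were classed as the same. These were changes that kept their direction and side of the threshold, called or not, and counts that stayed close to the main count. Among the rest, 39 lost a call, 16 gained one, 32 counts moved and 53 turned their sign, most of these for changes near 0. In tumours C1ra, C1rb, C1s1, C2, C4a and C4b kept a positive change in all 21 alternatives, from 1.83 to 2.43 for C1ra and from 2.08 to 2.67 for C4b. The 359 genes called in tumours became 2764 with array weights, 166 with the replicate block, 186 without 4 tumours (vehicle 1 and 4, GS9820 1 and 3; chosen after seeing the data) and 0 to 1690 with 1 tumour left out. The 3 members called became 6, 4, 0 and 0 to 4 in the same order. With the block C1s1 (2.85) and C2 (2.20) passed and C4a (2.54) did not; its numbers do not pair the tumours. The cause of these shifts was not tested.

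C1qb turned positive in tumours with array weights (0.27), the replicate block (0.16) and without the 4 tumours (0.63). With 1 tumour left out it ran from -0.25 to 0.39, C1qa from -0.079 to 0.64 and C1qc from -0.046 to 0.59, and without the 4 tumours C1qa was 0.92 and C1qc 0.86.

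Leaving out vehicle PMN 1 and 2 (chosen after seeing the data) gave 9 genes called in PMN and changes of 1.84 for C1qa, 1.495 for C1qb, 1.65 for C1qc, -0.19 for C1ra and -0.37 for C1rb. With array weights C1rb was -0.038 and C4a 0.13 in PMN, C1ra 0.12 in monocytes and the C1rb difference of effects 0.082. The replicate block gave 0.16 for C1ra in monocytes. With 1 library left out, PMN changes ran from -2.26 to 0.51 for C1qa, -2.43 to 0.39 for C1qc, -0.10 to 0.31 for C1rb, -0.50 to 0.35 for C4a and -0.86 to 0.13 for C4b. Monocyte changes ran from -0.15 to 0.52 for C1qa, -0.11 to 0.54 for C1qb, -0.27 to 0.35 for C1qc, -0.18 to 0.14 for C1ra and -0.071 to 0.27 for C1rb. Differences of effects ran from -0.29 to 2.48 for C1qa, -0.35 to 2.47 for C1qc and -0.27 to 0.19 for C1rb.

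Between monocytes and PMN of GS9820 mice, 2 members called became 1 with the stricter filter (a value of at least 2), 4 with array weights, 4 with the replicate block and 0 to 2 with 1 library left out, when C1ra ran from -0.011 to 0.41 and C4a from -0.19 to 0.34. In vehicle mice 3 called became 0 to 4 and C4b ran from -0.29 to 0.21. The replicate block, which pairs libraries by number, changed no call there. Depth is unknown, so genes near 0, such as C1rb and C4a in sorted cells, may rest on few reads.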
